A study of Mus musculus with 2 samples.

Results

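The eosinophil granule genes are 7 mouse genes, Prg2, Prg3, Epx, Ear1, Ear2, Ear6 and Ear10, chosen by symbol in GENCODE and read from gene tables that list 43346 annotated genes. All 7 were matched by identifier. The study sequenced total RNA of granulocyte-monocyte progenitors, the marrow population upstream of neutrophils and monocytes, as primary cells of male adult mice of the C57BL/6J strain at 5 to 6 weeks. There is 1 group, with no treatment or allele named in the labels, of 2 libraries made with a ScriptSeq kit, and each began with 100 ng of ribosome-depleted RNA. The labels list a size range, without its unit, of 200 to 712 (replicate 1) or 200 to 1000 (replicate 2). The labels call the libraries biological replicates 1 and 2 and tie both to the same donor record, so the spread between them may be partly technical. With 1 group no condition is compared and no test is made: the results are levels in each library, differences between genes within a library and differences between the libraries.

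Eosinophils store cationic proteins in their specific granules, and the 7 genes encode mouse members of these protein families. Major basic protein, made from the precursor encoded by Prg2, forms the crystalline core of the granule and is toxic to worm larvae and to epithelium, and Prg3 encodes its homologue. Epx encodes eosinophil peroxidase, a haem enzyme related to myeloperoxidase that uses hydrogen peroxide to oxidise halides and thiocyanate. The Ear genes encode eosinophil-associated ribonucleases of the ribonuclease A superfamily, the mouse relatives of human eosinophil-derived neurotoxin and eosinophil cationic protein. Ear1 and Ear2 are also known from macrophages and monocytes, so they are not particular to eosinophils. Granule proteins are made early in eosinophil development, before the cell takes its mature form.

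Coding sequence is shown first for the Ear genes, because their likeness decides how far reads can be told apart. In pairwise alignments of coding sequence without the stop codon, Ear2 and Ear10 were 97.0% identical over 468 nt. Ear1 was 95.7% identical to Ear2 and 95.1% to Ear10, while Ear6 was 88.2% identical to Ear2. The stretch called alike is the 90 nt, at coding bases 171 to 260, in which Ear1, Ear2 and Ear10 have the same sequence, printed once under Ear2, and Ear6 has 8 other bases. The stretch called differing is the 90 nt in which Ear1 and Ear10 differ most from Ear2, at coding bases 242 to 331, with 5 differing bases in each and 9 in Ear6. Capitals mark bases that differ from Ear2. The stretches come from the GENCODE M21 transcripts on mm10, at chr14:44103057-44103146 on the plus strand for Ear2 and chr14:51854168-51854257 on the plus strand for Ear6 in the alike stretch, and at chr14:44103128-44103217 (plus), chr14:43923038-43923127 (minus), chr14:43819079-43819168 (minus) and chr14:51854239-51854328 (plus) in the other.
Ear2, alike stretch: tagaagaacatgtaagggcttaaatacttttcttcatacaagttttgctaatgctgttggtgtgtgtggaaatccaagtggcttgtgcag
Ear6, alike stretch: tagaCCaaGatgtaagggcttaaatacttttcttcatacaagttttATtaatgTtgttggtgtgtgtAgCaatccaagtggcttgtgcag
Ear2, differing stretch: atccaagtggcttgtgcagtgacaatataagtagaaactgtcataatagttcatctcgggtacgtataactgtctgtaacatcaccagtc
Ear10, differing stretch: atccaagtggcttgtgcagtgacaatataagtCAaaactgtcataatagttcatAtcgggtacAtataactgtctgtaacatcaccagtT
Ear1, differing stretch: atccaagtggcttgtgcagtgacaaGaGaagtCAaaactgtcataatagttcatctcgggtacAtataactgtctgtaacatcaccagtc
Ear6, differing stretch: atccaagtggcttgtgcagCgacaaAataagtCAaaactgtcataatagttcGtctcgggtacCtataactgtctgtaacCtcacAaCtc

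How much of each transcript is shared with other genes depended on the length of the stretch read. In windows of 50 nt, 57.4% of the leading transcript of Ear1, 41.5% of that of Ear2 and 39.9% of that of Ear10 also occurred in a transcript of another gene, against 1.36% for Ear6. In windows of 100 nt the shares were 23.9% for Ear1, 13.9% for Ear2 and 24.2% for Ear10, and Ear6 shared none. In windows of 178 nt, the mean fragment length of replicate 1, 8 of 542 windows of Ear2 were shared, all with Ear10, and in windows of 214 nt, the mean of replicate 2, none was. Prg2, Prg3 and Epx shared no window of 50 nt with any other gene. The read length is not stated. The posterior SD of the gene count, the deposited measure of spread in the estimate, was listed as 0 in both libraries for each of the 6 genes that had reads. Over all genes with reads, 81.5% in replicate 1 and 82.5% in replicate 2 had a posterior SD of 0.

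**Figure D1:**
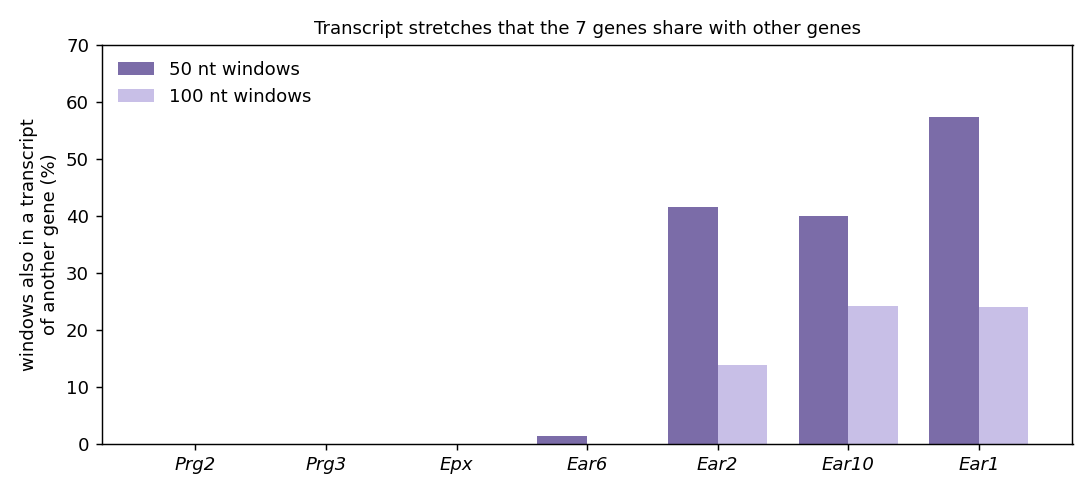
Share of stretches of 50 and 100 nt in the leading transcript of each eosinophil granule gene (horizontal axis) that also occur in a GENCODE M21 transcript of another gene (vertical axis, percent). Prg2, Prg3 and Epx are at 0, Ear6 at 1.36% or below, and Ear1, Ear2 and Ear10 between 13.9% and 57.4%.

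Replicate 1 held 49473848 and replicate 2 held 44260902 expected counts. Levels are in TPM, a length-corrected abundance that is scaled to the same total in each library, as deposited, and pairs of values give replicate 1 first. Nuclear protein-coding genes held 19.1% and 22.8% of that total, and levels rescaled to those genes alone are given where stated. Of genes commonly used to sort these progenitors, Kit, Cd34, Fcgr3 and Fcgr2b had means from 22.1 to 110 TPM, and Ly6a, which encodes Sca-1 and is usually selected against, had 0 counts in both. Itgam, which encodes the usually excluded CD11b, was at 4.45 and 5.88 TPM. The 7 granule genes summed to 25.2 and 25.4 TPM, or 132 and 111 on rescaled TPM. In bulk RNA, fewer cells of a type and less RNA per cell cannot be told apart.

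Prg2 was the main eosinophil granule transcript. It had 1820 counts in replicate 1, or 19.11 TPM, and 1209 counts in replicate 2, or 17.32 TPM, with a mean of 18.2 TPM ± 1.27 (SD, n = 2). The deposited credibility intervals (no level is stated) spanned 18.04 to 19.78 TPM and 16.16 to 18.08 TPM and overlapped by little. Prg2 held 76.0% of the summed TPM of the 7 genes in replicate 1 and 68.2% in replicate 2. Its mean placed it at rank 1905 of 21461 nuclear protein-coding genes. All of its reads fell to its single transcript of 838 nt in 6 exons, at chr2:84980461-84983632 on the plus strand of mm10.

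Prg3, the homologue of major basic protein, lies 4582 bp downstream of Prg2 on the same strand, at chr2:84988215-84993886. Coding sequences of Prg2 and Prg3 were 62.9% identical over 660 aligned nt. Prg3 was at 2.07 TPM in replicate 1, with an interval of 1.82 to 2.37, and at 3.77 TPM in replicate 2, with an interval of 3.16 to 4.42, so the intervals did not overlap. Its counts went the other way, with 230 in replicate 1 and 208 in replicate 2. The libraries differed in how reads were divided between 2 transcripts of the gene. In replicate 1 all 230 counts were given to the protein-coding transcript of 949 nt. In replicate 2, 149.43 counts were given to that transcript and 58.57 to a processed transcript of 481 nt with no annotated coding sequence. The processed transcript lacks the third exon of the coding one, 308 nt at chr2:84989225-84989532, and parts of its second and last exons, and all of its bases lie within exons of the coding transcript. Because the shorter transcript divides its reads by a smaller effective length, it held 51.9% of the gene's TPM in replicate 2 with 28.2% of its counts. The protein-coding transcript alone was at 2.07 and 1.82 TPM, a mean of 1.95 TPM ± 0.177 (SD, n = 2), and its intervals of 1.78 to 2.31 and 1.49 to 2.14 TPM overlapped. Prg2 exceeded the gene-level Prg3 by 9.23-fold in replicate 1 and 4.59-fold in replicate 2, and exceeded the coding transcript of Prg3 by 9.23-fold and 9.52-fold.

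Epx was low in both libraries and showed the same division. The gene lies at chr11:87864000-87875536 on the minus strand, with 13 exons in its protein-coding transcript. It had 313 counts and 0.86 TPM in replicate 1, with an interval of 0.784 to 1.05, and 194 counts and 1.11 TPM in replicate 2, with an interval of 0.832 to 1.40. The TPM of the gene was thus higher in the library with fewer counts. In replicate 1 all counts were given to the coding transcript, and in replicate 2, 25.05 of them were given to a processed transcript of 658 nt that held 45.0% of the gene's TPM there. The processed transcript begins with an exon of its own of 48 nt, and its other 3 exons lie within exons 7 to 9 of the coding one. The coding transcript alone was at 0.86 TPM and 0.61 TPM, a mean of 0.735 TPM ± 0.177 (SD, n = 2), and its intervals, 0.755 to 0.947 and 0.510 to 0.712 TPM, did not overlap. For both genes, although the gene count had no posterior spread, the posterior SD of the transcript count was larger in replicate 2 than in replicate 1, at 6.34 against 1.76 counts for Prg3 and 5.84 against 3.44 for Epx.

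**Figure D2:**
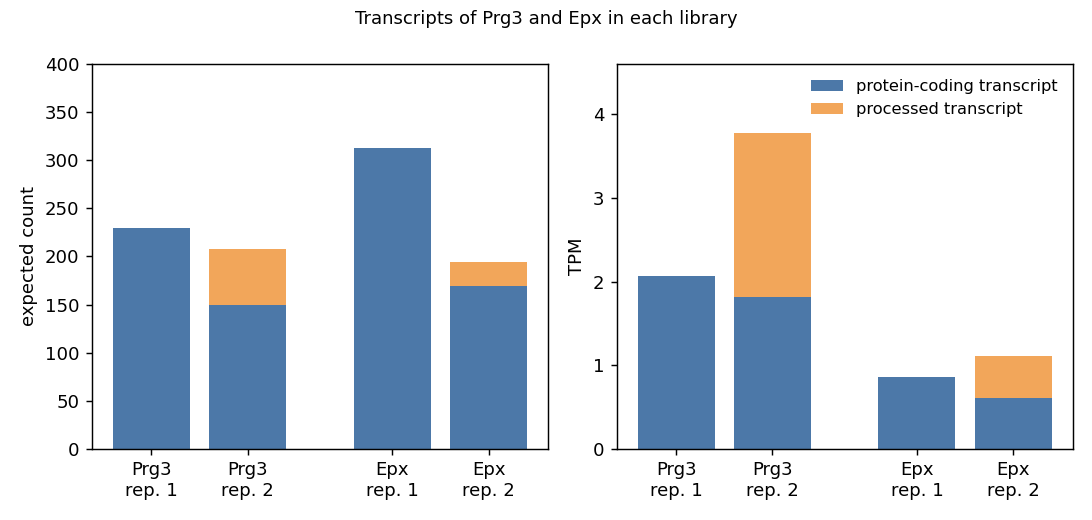
Expected counts (left) and TPM (right) of the protein-coding and the processed transcript of Prg3 and Epx in each library, stacked. The processed transcripts hold 0 counts in replicate 1 and 58.57 (Prg3) and 25.05 (Epx) in replicate 2, and take a larger part of the TPM than of the counts.

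Epx lies 59586 bp from Mpo, the myeloperoxidase gene, whose product fills the azurophil granules of neutrophils. The neighbours differed widely in level although their coding sequences were 69.9% identical. The level of Mpo was 2552 and 2288 TPM, which is 2968-fold and 2061-fold the level of Epx. Lpo, the lactoperoxidase gene between them, had 0 counts in both libraries.

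Of the ribonuclease genes, Ear2 was the highest, Ear1 and Ear6 followed, and Ear10 had no read. Ear2, at chr14:44102654-44103534, had 153 counts and 1.96 TPM in replicate 1 and 96 counts and 1.70 TPM in replicate 2, with intervals of 1.65 to 2.26 and 1.37 to 2.04 TPM that overlapped. Ear1 had 49 counts and 0.63 TPM in replicate 1 and 55 counts and 0.98 TPM in replicate 2, with intervals of 0.485 to 0.845 and 0.764 to 1.29 TPM that overlapped. GENCODE M21 places Ear1 at chr14:43818765-43875517, which spans the pseudogenes Ear-ps9 and Ear-ps12, and all of its counts went to its transcript of 713 nt. Ear6, at chr14:51853699-51854643, had 41 counts and 0.53 TPM in replicate 1 and 28 counts and 0.50 TPM in replicate 2. It had the lowest mean TPM of the 6 genes that had reads and also the smallest SD, 0.0212 TPM. Of its 2 transcripts, the one of 713 nt took all reads. Ear2 held 62.8% of the summed TPM of the 4 Ear genes in replicate 1 and 53.5% in replicate 2.

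Ear10, at chr14:43922720-43923559 on the minus strand, had 0 counts in both libraries. Up to 3 counts are compatible with 0, which is 0.0606 CPM (counts scaled by library size, not by length) in replicate 1 and 0.0678 in replicate 2. For the longer of its transcripts, of 678 nt, that is 0.0416 and 0.0578 TPM, by counting error alone. The upper bounds of the deposited intervals for the gene were higher, at 0.0907 and 0.131 TPM. With 75.8% of its windows of 100 nt found in no other gene, most stretches of that length in its longer transcript are particular to Ear10. The 9 Ear pseudogenes listed in the tables and Ear14, a protein-coding member of the family, also had 0 counts in both libraries. The 4 listed Ear genes summed to 3.12 and 3.18 TPM, a mean of 3.15 TPM ± 0.0424 (SD, n = 2). Their summed counts were lower in replicate 2, at 243 and 179, and so was their summed rescaled TPM, at 16.4 and 13.9.

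Ear10 had no reads while Ear1 and Ear2, its nearest relatives, did, and a part of the promoter in that was not tested. Promoter sequence is shown as a description. RefSeq promoters on GRCm38.p6, the mm10 assembly, run from 250 bases before to 50 after the annotated start, and were matched for 6 of the 7 genes, without Prg2. The Ear1 and Ear2 promoters were 99.0% identical over 297 aligned bases, and that of Ear10 was 93.2% identical to that of Ear2 over 294. The letters GATAA, a core of sites for GATA factors, were searched on both strands and stand in capitals below. All 4 Ear promoters held 1 match, beginning within 6 bases after the annotated start. The Prg3 promoter held 2, beginning 123 and 111 bases before the start, and the Epx promoter held none. At least 1 match occurred in 25.4% of 32851 mouse promoters of the same length and at least 2 in 5.27%. The letters TTGCNNAA, of C/EBP factors, occurred once in Ear1, Ear2 and Ear10 and in 10.8% of all promoters. The letters GAGGAA, of PU.1, occurred in none of the 6 and in 28.3% of all. A match is a description of the letters and not a site. Ear1, Ear2 and Ear10 held the same number of matches to each of the 3 motifs.
Ear2, chr14:44102404-44102703, plus strand: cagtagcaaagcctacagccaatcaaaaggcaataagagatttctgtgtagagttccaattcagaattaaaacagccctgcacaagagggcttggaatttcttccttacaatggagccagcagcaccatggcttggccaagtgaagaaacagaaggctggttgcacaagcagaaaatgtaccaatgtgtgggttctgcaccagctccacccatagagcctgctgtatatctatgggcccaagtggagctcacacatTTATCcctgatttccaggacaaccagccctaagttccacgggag
Ear10, chr14:43923547-43923846, minus strand: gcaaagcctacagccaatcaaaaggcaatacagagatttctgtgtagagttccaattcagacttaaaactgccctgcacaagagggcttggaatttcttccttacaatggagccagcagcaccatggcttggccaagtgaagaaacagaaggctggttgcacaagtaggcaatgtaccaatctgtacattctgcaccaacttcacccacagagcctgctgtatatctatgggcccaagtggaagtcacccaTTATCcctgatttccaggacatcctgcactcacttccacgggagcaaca
Prg3, chr2:84987965-84988264, plus strand: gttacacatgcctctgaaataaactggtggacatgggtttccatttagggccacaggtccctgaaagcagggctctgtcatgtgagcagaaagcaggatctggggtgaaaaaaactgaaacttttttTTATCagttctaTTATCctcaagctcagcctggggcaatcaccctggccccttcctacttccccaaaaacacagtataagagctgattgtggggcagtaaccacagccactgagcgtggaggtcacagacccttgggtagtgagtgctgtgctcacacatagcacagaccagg

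The order of the 7 genes by mean TPM was Prg2, Prg3, Ear2, Epx, Ear1, Ear6 and Ear10. Prg2 stood apart from Prg3 in both libraries by the deposited intervals, and so did Ear6 from Ear10. The intervals of Prg3 and Ear2 overlapped in replicate 1 and not in replicate 2, and those of Ear2 and Epx in replicate 2 and not in replicate 1. The intervals of Epx and Ear1 overlapped in both libraries, and so did their ranges over the libraries, so that order is not settled. The intervals of Ear1 and Ear6 overlapped in replicate 1 alone. Prg2, Prg3 and Ear2, 3 of the 7, had 1 TPM or more in each library, where 40.8% of nuclear protein-coding genes reached that level. On rescaled TPM 6 of the 7 reached 1, where 10261 of 21461 nuclear protein-coding genes did. Rescaled, Prg2 was at 100.2 in replicate 1 and 75.8 in replicate 2, Epx at 4.51 and 4.86, and Ear6 at 2.78 and 2.19.

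**Figure D3:**
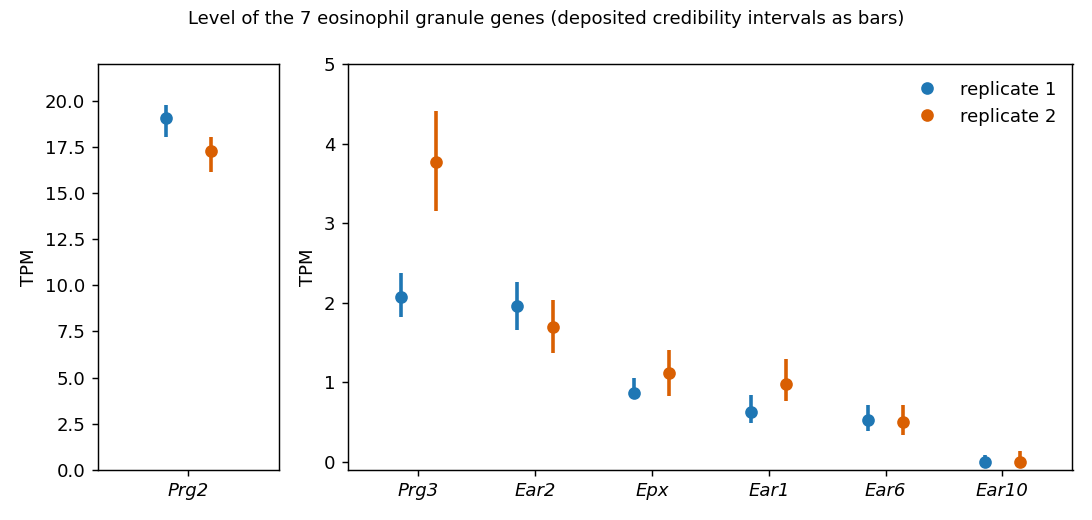
Deposited TPM of the eosinophil granule genes in replicate 1 and replicate 2 (points) with the deposited credibility intervals (bars). Prg2 has its own axis and stands at 19.11 and 17.32 TPM, Prg3 is higher in replicate 2, and Ear10 is at 0.

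Counts scaled for library size, which take no account of how reads are divided among transcripts, gave the difference between the libraries. Log2 ratios of replicate 2 to replicate 1 on CPM were -0.47 for Prg2, -0.55 for Ear2, -0.57 for Epx, -0.41 for Ear6, -0.03 for Prg3 and 0.27 for Ear1. Intervals for counting error alone (exact Clopper-Pearson, 95%) excluded 0 for Prg2 (-0.58 to -0.37), Epx (-0.84 to -0.31) and Ear2 (-0.94 to -0.18). They held 0 for Ear6 (-1.18 to 0.29), Prg3 (-0.31 to 0.25) and Ear1 (-0.30 to 0.87). Counting error leaves out the spread between biological samples, and 1 library against 1 gives no test. Of the 7 genes 6 passed the filter on low counts, and Ear10 did not. None of the 6 differed by more than 2-fold, where 9.48% of the 12855 genes kept by the filter on low counts did, and 13.6% of the 7862 kept genes with 60 to 4000 counts in sum. The median ratio of the 6 was -0.44 and their median absolute ratio 0.44, against -0.0029 and 0.25 over all kept genes and -0.04 and 0.34 over those with 60 to 4000 counts. Several other lists also had medians below 0, such as neutrophil primary granule genes at -0.31 and eosinophil-lineage transcription factors at -0.27. The lists of granule make-up, monocyte and basophil and mast cell genes had medians above 0, at 0.13, 0.13 and 0.09. On rescaled TPM with 0.1 added, the ratios of Epx and Prg3 were 0.11 and 0.60. The direction of Epx thus turned, and Prg3, near 0 on CPM, was higher in replicate 2. That scale takes in the division among transcripts.

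**Figure D4:**
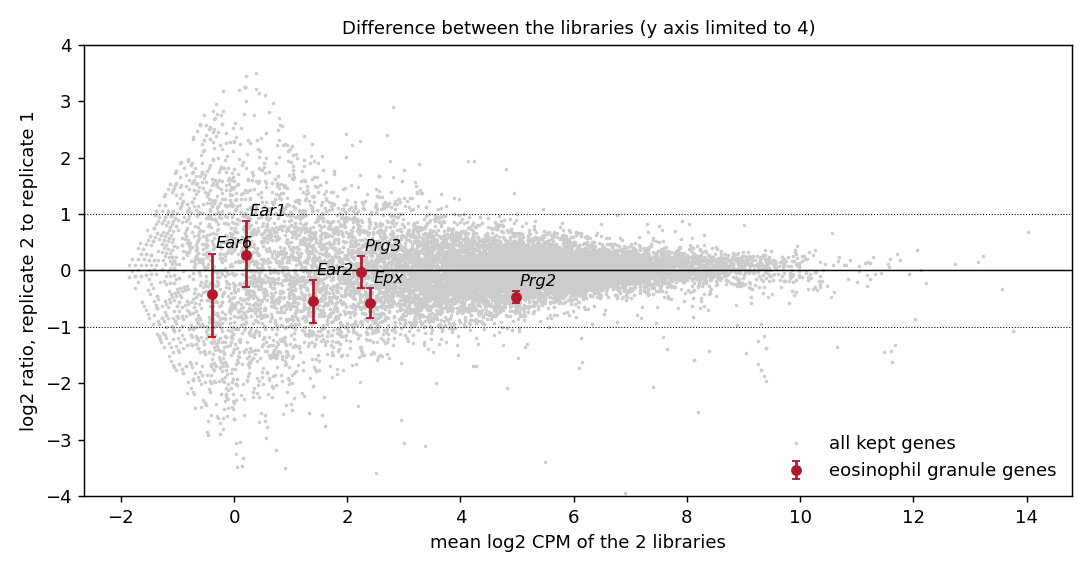
Log2 ratio of replicate 2 to replicate 1 against mean log2 CPM. Grey points are the genes kept by the filter, red points are the eosinophil granule genes with reads, with intervals for counting error alone, and dotted lines mark 2-fold; the vertical axis is limited to 4 in either direction. Prg2, Epx and Ear2 lie below 0 with their intervals, and no red point is past a dotted line.

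Receptors and surface proteins of eosinophils were mixed. A level of 1 TPM was reached in each library by 8 of 16 such genes, against 40.8% of nuclear protein-coding genes. Ptgdr2, a prostaglandin D2 receptor gene, had 0 counts in both libraries. Siglecf, a sialic acid-binding lectin used to stain mouse eosinophils, had 3.86 and 5.13 TPM, above Epx and every Ear gene in both libraries. Csf2rb and Csf2ra, chains of the receptors through which interleukin-5 and granulocyte-macrophage colony-stimulating factor act, were at 7.28 TPM ± 0.198 (SD, n = 2) and 6.13 TPM ± 2.10. Csf2rb has a near-identical copy, Csf2rb2, at 0.190 TPM ± 0.0283, and the posterior SD of its count was 3.67 of 4904 and 1.98 of 3629 counts. Il5ra, the chain that makes the receptor specific to interleukin-5, had 0 counts in replicate 1 and 57 in replicate 2, or 0.34 TPM. Its CPM in replicate 2 was 21.2-fold that of the 3 counts that a count of 0 allows. That ratio takes the 57 counts as exact, and Il5ra did not pass the filter on low counts. All 57 counts went to its single transcript. Ccr3, the eotaxin receptor gene of mature eosinophils, was at 0.07 TPM and 0.17 TPM, from 32 and 59 counts. Il1rl1, the receptor chain for interleukin-33, was at 0.440 TPM ± 0.0424.

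Of the transcription factors listed for the eosinophil lineage, 11 of 14 reached 1 TPM in each library, where 40.8% of nuclear protein-coding genes did. Gata1, Gata2 and Zfpm1 did not. Some that did are shared with other lineages, such as Irf8, which is also in the list of monocyte genes. Cebpe, required for late granulocyte maturation including granule gene expression, was at 13.04 TPM ± 0.672 (SD, n = 2), near Prg2 in level. Spi1, which encodes PU.1, and Xbp1, a factor of secretory cells needed for eosinophil development, were at 27.1 TPM ± 0.438 and 42.6 TPM ± 6.31. Gata1, needed in mice to form eosinophils, was low, at 0.71 TPM from 176 counts in replicate 1 and 0.99 TPM from 66 counts in replicate 2. Gata2 was at 1.25 TPM and 0.73 TPM, from 533 and 241 counts. Zfpm1, which encodes the GATA cofactor FOG-1, was at 0.41 and 1.30 TPM, from 164 and 175 counts. The effective lengths of Gata1 and Zfpm1 fell from 1724.87 and 2795.85 in replicate 1 to 597.29 and 1203.69 in replicate 2. Their TPM, which divides by that length, thus rose, although the counts of Gata1 fell and those of Zfpm1 changed little. On CPM, 3 of the 14 were more than 2-fold lower in replicate 2, Id2 at -1.13, Gata2 at -1.02 and Gata1 at -1.27, and none was more than 2-fold higher. Over all 12855 kept genes, 9.48% differed by more than 2-fold either way. The counts of Prg2, Epx and Ear2 were lower in the same library, and a part of these factors in that was not tested.

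Machinery for granules in general was expressed, at levels that varied widely among the genes. All 11 matched genes of granule make-up and secretion reached 1 TPM in both libraries, where 40.8% of nuclear protein-coding genes did. Vamp7 was not matched. A level of 10 TPM was reached in both by 8 of the 11, where 3066 of 21461 nuclear protein-coding genes did. The lowest were Stx3, at 1.24 and 1.30 TPM, and Ctsl, at 2.71 and 4.70 TPM. Srgn, the proteoglycan core that binds cationic granule proteins, was at 574 TPM ± 177 (SD, n = 2). Cst7, which encodes cystatin F, was at 90.8 TPM ± 5.75, Cd63, a granule membrane tetraspanin, at 36.1 TPM ± 1.79, and Rab27a, a GTPase of granule release, at 38.8 TPM ± 7.37. Among lipid mediator enzymes, Alox5ap, the partner of 5-lipoxygenase, was at 55.4 TPM ± 2.81 and Ptgs1, a cyclooxygenase, at 12.1 TPM ± 0.438. Alox15, the 12/15-lipoxygenase of mouse eosinophils, was at 0.12 and 0.20 TPM, and Ltc4s, the leukotriene C4 synthase gene, had 0 and 2 counts.

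The lists of monocyte genes and of basophil and mast cell genes are not limited to granule genes. Set against these and against granule genes of neutrophils, the eosinophil granule genes were low. On log2(TPM + 1), which understates differences of low genes, their median minus that of 6 neutrophil primary granule genes was -7.87 ± 0.26 (SD, n = 2). The corresponding differences were -2.88 ± 0.06 against 8 genes of specific and gelatinase granules, -4.16 ± 0.03 against 8 monocyte genes and -0.98 ± 0.05 against 12 basophil and mast cell genes. All nuclear protein-coding genes had medians of 0.23 and 0.26 on that scale, and the eosinophil genes 0.90 and 1.08. The basophil difference was 0.0315 with the Ear genes summed to 1 value, so its direction rests on counting them singly. By single genes, Mpo exceeded Prg2 by 134-fold in replicate 1 and 132-fold in replicate 2 in TPM, and Elane, the neutrophil elastase gene, by 42.1-fold and 41.7-fold. Camp, a specific granule gene, was at 46.46 and 32.59 TPM, above Prg2 in both libraries. Of the basophil and mast cell genes, Hdc, which encodes the enzyme that makes histamine, at 29.86 and 32.58 TPM, and Fcer1g, a chain shared by several Fc receptors, at 28.14 and 40.16 TPM, were above Prg2 in both libraries. Prg2 was above Mcpt8, a basophil protease gene at 6.46 and 12.12 TPM, and Prss34, another at 4.27 and 5.61 TPM. Prg2 was close to Cpa3, the mast cell carboxypeptidase gene, at 17.61 and 26.46 TPM, with the order of the pair turned between the libraries. Major basic protein is known from basophils as well as eosinophils. Of the 12 basophil and mast cell genes 7 reached 1 TPM in both libraries, where 40.8% of nuclear protein-coding genes did. The 12 summed to 97.06 and 128.31 TPM, and the mast cell tryptase genes Tpsb2 and Tpsab1 had 0 counts. A part of basophils or mast cells in the level of Prg2 was not tested.

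**Figure D5:**
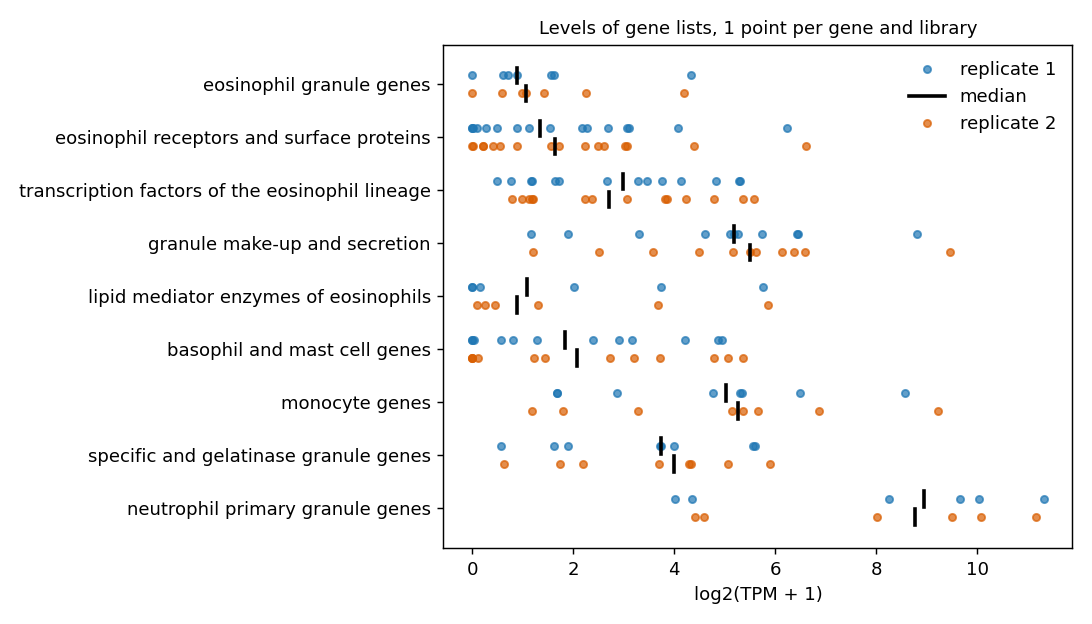
Level of each gene of the lists on log2(TPM + 1), with 1 point per gene and library and the list median as a black line. The eosinophil granule genes have medians of 0.90 and 1.08 with Prg2 far to the right of the other members, and the neutrophil primary granule genes lie highest.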

How the data were processed

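Per the file headers, the deposited tables give expected counts, TPM and FPKM for genes and transcripts, with posterior means, posterior SDs of counts and bounds of TPM. The deposited transcript tables also give the percent of its gene that a transcript holds. The text note deposited with each sample gives the assembly mm10 and the annotation GENCODE M4. No aligner or quantifier is named in the sources used here. Symbols, coordinates and transcripts were taken from GENCODE M21 by identifier without version, which matched 42462 of 43346 genes. Rescaled TPM scales the nuclear protein-coding genes to the full TPM total.

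Expected counts were rounded for edgeR 4.0.16 in R 4.3.3. Ratios are log2 CPM with TMM factors (0.985 and 1.02) and a prior count of 2, over 12855 genes kept by filterByExpr. The biological coefficient of variation between the libraries was 0.264. On simulated counts of those 12855 genes, 200 of them changed, the fit returned 0.135 for a true 0.1 and 0.311 for a true 0.3. Mean fragment lengths were derived from the lengths and effective lengths of transcripts over 2000 nt. Zero-count limits and ratio intervals cover counting error only. Coding sequences were aligned with MAFFT 7.526. Genes named are the 7 members, every other Ear gene and the genes of the lists. The list of neutrophil primary granule genes held Azu1, which was not matched. The members and lists were chosen with earlier results of these data known. The range of 60 to 4000 counts was chosen after the counts of the members were seen. Alternatives were other pseudocounts, thresholds, filters, scalings including DESeq2 1.42.0 size factors, and each library alone. Replicate number pairs no groups here, since there is 1 group.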

Additional observations from a re-analysis of the deposited data

How the results depend on the processing

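No paired analysis was possible because there is 1 group. The summed Ear level of 3.15 TPM was 3.25 as posterior mean TPM and 15.1 on rescaled TPM, and from 3.12 to 3.18 with each library left out in turn. The count of 3 genes at 1 TPM or more was 6 at a threshold of 0.1 TPM and 6 on rescaled TPM, and 3 to 4 with a library left out. With a pseudocount of 0.1, the median differences were -8.74 against primary granule, -3.67 against specific granule, -1.42 against basophil and mast cell and -5.00 against monocyte genes. On rescaled TPM they were -8.60, -3.54, -1.35 and -4.87 in the same order; they were, with means in place of medians -6.50, -1.97, -0.76 and -3.26, and with the Ear genes summed to 1 value -6.86, -1.87, 0.0315 and -3.15. The basophil difference thus turned with the Ear genes summed, which replaces 4 low values by 1. Without genes of either list below 0.1 TPM in both libraries, the last 3 were -2.63, -1.81 and -3.90. That removed Ear10 and, from the basophil and mast cell list, Cma1, Tpsab1 and Tpsb2. The biological coefficient of variation was 0.550 with no filter on low counts. Of 18 alternative ratios between the libraries 16 moved by less than the counting error, the exceptions being Epx and Prg3 on rescaled TPM. Depth limits Ear1, Ear6 and Ear10, with 55 counts or fewer in a library.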

Other observations

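Of 15 other ribonuclease genes of the same superfamily, 9 had 0 counts in both libraries, where 40.2% of nuclear protein-coding genes did. Among the 9 was Rnase2b, which the RefSeq table also lists as Ear5. Rnase2a, which it also lists as Ear11, had a single read, in replicate 2. The highest were Rnase12, with 131 counts and 2.47 TPM in replicate 1 and 96 counts and 2.59 TPM in replicate 2, and Rnase6, at 1.13 and 1.97 TPM. In TPM, Rnase12 was above Ear2 in both libraries, but their intervals overlapped in replicate 1. Counts of Rnase12 did not exceed the 153 and 96 of Ear2. Rnase6 was below Ear2 in replicate 1 and above it in replicate 2, where their intervals overlapped. Rnase4 and Ang overlap on the same strand, so their levels of 0.560 TPM ± 0.0424 (SD, n = 2) and 0.330 TPM ± 0.0566 depend on how shared reads were split.

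Hpgds, the hematopoietic prostaglandin D synthase gene, had 1 count in replicate 1 and 33 in replicate 2, the same direction as Il5ra. Neither gene passed the filter on low counts. Of the receptor list, Itgb7, an integrin chain of gut-homing cells, was more than 2-fold higher in replicate 2, at 310 and 634 counts. Of the basophil and mast cell list, Gzmb was more than 2-fold lower, at 87 and 11 counts. Among all 12855 kept genes, 9.48% differed by more than 2-fold either way.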
